A study of Mus musculus with 10 samples.

Results

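The 39 genes described here encode the extracellular parts of the Wnt pathway, 19 Wnt ligands, 10 Frizzled receptors and 10 secreted inhibitors. They were taken by name, from Wnt1 to Wnt16 and Fzd1 to Fzd10, together with Sfrp1, Sfrp2, Sfrp4, Sfrp5, Frzb, Dkk1 to Dkk4 and Wif1. All 39 were found in the annotation of mm10. CpG sites were counted from 2 kb upstream of the gene start to the gene end when both strands together had 10 or more reads in all 10 animals. This gave 2907 CpG sites of 904354 in the whole series, 1697 in ligands, 950 in receptors and 260 in inhibitors. A total of 37 genes held at least 1 such CpG site, and Wnt16 and Dkk4 held 0. Sites within 1 kb of the gene start were counted as promoter and sites further downstream as gene body.

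Reduced representation bisulfite sequencing (RRBS), which reads the methylation of CpG sites near the CCGG cuts of the enzyme MspI, was performed on spermatozoal DNA of 10 male C57Bl/6 mice. The P-generation vehicle-control (animals C8 and C14) was given intraperitoneal injections of vehicle (phosphate buffered saline with 7.5% dimethyl sulfoxide). The decitabine treated animals D10, D11 and D13 received 0.1 µg/g decitabine, an inhibitor of DNA methyltransferases, also with 7.5% dimethyl sulfoxide. Both groups were 7 weeks old at the start and received 3 injections per week for 7 weeks. The F3-generation was untreated and descended through males mated to untreated females, with F3C9 and F3C30 from the vehicle-control and F3D1, F3D7 and F3D31 from decitabine treated animals. F3D1 and F3D31 both descended from D10, so these 3 animals do not stand for 3 treated ancestors, and no descendant of D13 was sequenced. Spermatozoa were released from minced epididymides, and each animal was 1 library.

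Wnt proteins are secreted, lipid-modified signals. They bind Frizzled receptors, which cross the membrane several times, and the LRP co-receptors, and the signal is passed on either through beta-catenin to TCF and LEF transcription factors or through planar polarity and calcium branches. Sfrp proteins, Frzb and Wif1 bind Wnt proteins outside the cell, whereas Dkk1 and Dkk2 bind the LRP co-receptors. In the testis the pathway is known for its part in germ cell and Sertoli cell development, and many of these genes are regulators of embryonic patterning. Sperm DNA is methylated over most of the genome, with CpG-dense gene starts as the known exception.

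The promoters of these genes were rich in CpG. RefSeq promoter sequences (300 bases around the start, GRCm38.p6) were matched for 27 of the 39 genes. The median was 27 CpG per 300 bases, against 7 over the first promoter of 27018 genes. The motif CCGG, which reads alike on both strands, was in 25 of the 27 (92.6%), against 52.6% of all promoters. Parts of 4 promoters are shown, a ligand, a receptor and an inhibitor that were read and Wnt16, which was not. They are printed on the strand of the gene with every CpG in capitals.
Wnt1 promoter (chr15:98789697-98789846, plus strand): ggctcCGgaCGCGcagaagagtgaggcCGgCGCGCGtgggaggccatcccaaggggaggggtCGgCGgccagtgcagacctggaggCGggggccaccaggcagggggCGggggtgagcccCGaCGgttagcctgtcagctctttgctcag
Fzd5 promoter (chr1:64737761-64737910, minus strand): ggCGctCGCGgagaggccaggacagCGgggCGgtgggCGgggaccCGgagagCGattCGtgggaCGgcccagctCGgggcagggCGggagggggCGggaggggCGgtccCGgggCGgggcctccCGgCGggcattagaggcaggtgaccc
Sfrp5 promoter (chr19:42202263-42202412, minus strand): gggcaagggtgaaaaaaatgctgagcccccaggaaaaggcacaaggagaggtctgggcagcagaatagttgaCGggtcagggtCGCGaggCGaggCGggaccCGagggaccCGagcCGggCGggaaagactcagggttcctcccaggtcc
Wnt16 promoter (chr6:22288067-22288216, plus strand): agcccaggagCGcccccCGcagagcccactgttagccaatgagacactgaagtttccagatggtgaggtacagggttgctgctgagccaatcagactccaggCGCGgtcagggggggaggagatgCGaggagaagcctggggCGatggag
Of the 13 CpG in the Wnt1 stretch, 10 were covered in all animals, with a mean of 1.29%. The Fzd5 stretch had 18 CpG and 14 covered ones at 0.253%. The Sfrp5 stretch had 9 CpG and 2 covered ones at 2.57%. The Wnt16 stretch had 6 CpG, 0 CCGG and 0 covered sites.

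Outside the promoters, 2 further stretches of low methylation, deep in introns of Wnt3 and Wnt3a, are shown in the same way (GRCm38). The low runs they come from stood 35678 and 26132 bp from the nearest annotated start of their own gene. No start of another gene was within 1 kb. A low run of 12 sites in Wnt10a, 9593 bp from its nearest annotated start, is not printed.
Wnt3 intron (chr11:103810102-103810251, plus strand): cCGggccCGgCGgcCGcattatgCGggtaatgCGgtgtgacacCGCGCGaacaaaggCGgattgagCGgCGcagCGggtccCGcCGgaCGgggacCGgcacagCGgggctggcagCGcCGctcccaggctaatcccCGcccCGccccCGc
Wnt3a intron (chr11:59264138-59264287, minus strand): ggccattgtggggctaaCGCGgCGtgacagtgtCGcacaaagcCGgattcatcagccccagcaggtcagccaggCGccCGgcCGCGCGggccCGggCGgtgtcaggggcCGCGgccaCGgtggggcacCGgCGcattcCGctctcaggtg
The Wnt3 stretch held 23 CpG, of which 21 were covered with a mean of 0.707%. The Wnt3a stretch held 18 CpG, of which 15 were covered with a mean of 1.55%. At single sites within them, the mean over the 10 animals was at most 2.09% in Wnt3 and 6.93% in Wnt3a.

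The CpG sites that differed between decitabine and vehicle by the thresholds given below are shown with 30 bases to either side, or as 30 bases in all within a 3′ UTR, on the strand of the gene in GRCm38, where only the called CpG is in capitals.
Wnt3, 1261 bp from the start, intron (chr11:103775381-103775442, plus strand): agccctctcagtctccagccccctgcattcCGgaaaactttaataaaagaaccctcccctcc
Wnt3a, 41404 bp, 3′ UTR (chr11:59249334-59249363, minus strand): attccaatttgggcCGgaagtcctacctca
Wnt3a, 41362 bp, 3′ UTR (chr11:59249376-59249405, minus strand): tacgggtttctgccCGagggtggggctcca
Wnt5b, 92539 bp, intron (chr6:119451778-119451839, minus strand): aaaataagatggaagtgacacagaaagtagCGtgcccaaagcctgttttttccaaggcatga
Wnt5b, 23534 bp, intron (chr6:119520783-119520844, minus strand): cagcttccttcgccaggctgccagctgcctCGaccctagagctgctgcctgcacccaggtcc
Wnt6, 11852 bp, intron (chr1:74783714-74783775, plus strand): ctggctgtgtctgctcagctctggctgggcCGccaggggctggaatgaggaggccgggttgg
Wnt7b, 44025 bp, intron (chr15:85538418-85538479, minus strand): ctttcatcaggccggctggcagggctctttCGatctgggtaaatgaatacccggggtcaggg
Wnt9b, 18719 bp and 18729 bp, coding exon (chr11:103731062-103731133, minus strand): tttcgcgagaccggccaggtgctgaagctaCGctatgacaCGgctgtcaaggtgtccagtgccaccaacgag
Wif1, 29482 bp, intron (chr10:121063412-121063473, plus strand): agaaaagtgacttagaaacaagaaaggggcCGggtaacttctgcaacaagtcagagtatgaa
Wif1, 65942 bp, 3′ UTR (chr10:121099888-121099917, plus strand): cccaccatctgaaaCGgttcaagttacacc

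The depth and the make-up of the libraries bear on all values. The summed coverage of the cytosines was 48903817 in D13 to 115158278 in F3D1, and the median coverage of cytosines with 10 or more reads was 28 to 63. The libraries also differed in a measure outside these genes. The promoters of 6 germ cell genes (Dazl, Ddx4, Sycp1, Sycp3, Mael and Hormad1), all of which had covered sites, had a mean of 28.7% and 15.1% in C8 and C14, 28.2%, 28.5% and 20.1% in D10, D11 and D13, 23.8% and 13.5% in F3C9 and F3C30, and 19.7%, 12.2% and 14.7% in F3D1, F3D7 and F3D31. Both vehicle groups therefore held 1 animal with a high and 1 animal with a low value. Maternally methylated imprinted promoters, which are unmethylated in sperm, had sites in 7 of 9 genes. Their mean was 5.22% to 14.6% in the P-generation vehicle-control, 7.47% to 13.2% in decitabine treated animals, 6.72% to 11.1% in the F3-generation vehicle-control and 8.12% to 9.21% in the F3-generation of decitabine treated animals, and C8 was highest. The 2 covered sites upstream of H19, which is methylated in sperm, were at 84.6% to 100%. The part of these differences in the results was not tested, and the values without C8, C14, F3C9 or F3C30 are given beside the calls and several of the largest body differences.

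Promoters of the Wnt, Frizzled and inhibitor genes had very low methylation in spermatozoa of every group, with 1 exception. Of 36 promoters with at least 3 CpG sites, 35 (97.2%) had a mean under 5% over the 10 animals, against 88.7% of 13203 promoters of all protein-coding genes. All 10 Frizzled promoters lay between 0.621% and 1.03%, and the 9 inhibitor promoters between 0.741% and 3.07%. At single CpG sites, 768 of 774 in ligand promoters, 634 of 634 in receptor promoters and 198 of 198 in inhibitor promoters were under 20%.

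Wnt8a, a ligand of the early embryo, was that exception. Its promoter, read at 3 CpG sites on chromosome 18, was methylated at 40.6% and 18.5% in C8 and C14, 50.1%, 48.0% and 27.9% in D10, D11 and D13, 23.4% and 23.6% in F3C9 and F3C30, and 24.6%, 13.7% and 26.8% in F3D1, F3D7 and F3D31. C8, D10 and D11 were high, and the groups overlapped in both generations. The P-generation means were 29.5% ± 15.6 (SD, n = 2) in the vehicle-control and 42.0% ± 12.3 (SD, n = 3) in decitabine treated animals. On the log2 scale of the methylated over the unmethylated fraction the difference was 0.83 ± 0.60 (SE), with a limma adjusted p of 0.759. Without C8 the P-generation difference was 23.5 percentage points, and without C14 it was 1.38. The animals high at Wnt8a were also the 3 highest at the germ cell gene promoters.

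In the gene bodies, methylation differed widely between genes, from 0.941% to 97.4%, while the median range of a gene over the 10 animals was 6.23 percentage points. The median of 30 bodies was 19.98%, against 74.6% over 11916 protein-coding genes and 74.1% over 40 other Wnt pathway genes (co-receptors, Dishevelled, the beta-catenin destruction complex, TCF and LEF factors and other modulators). A total of 15 bodies (50%) were under 20%, against 18.5% of all genes, and 4 (13.3%) were over 80%, against 45.1%. The classes differed, with medians of 12.9% in 9 receptors, 20.9% in 17 ligands and 85.2% in 4 inhibitors. They also differed in where their covered body sites lay. At 1 to 2 kb from the start lay 228 of 314 receptor, 210 of 914 ligand and 10 of 58 inhibitor sites. Of these, 87.7%, 97.6% and 100% were under 20%. Beyond 20 kb, 0 of 21 receptor and 0 of 37 inhibitor sites were under 20%, against 228 of 311 in ligands. The part of distance in the class medians was not tested. The plot of all genes by animal shows both zones.

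**Figure D1:**
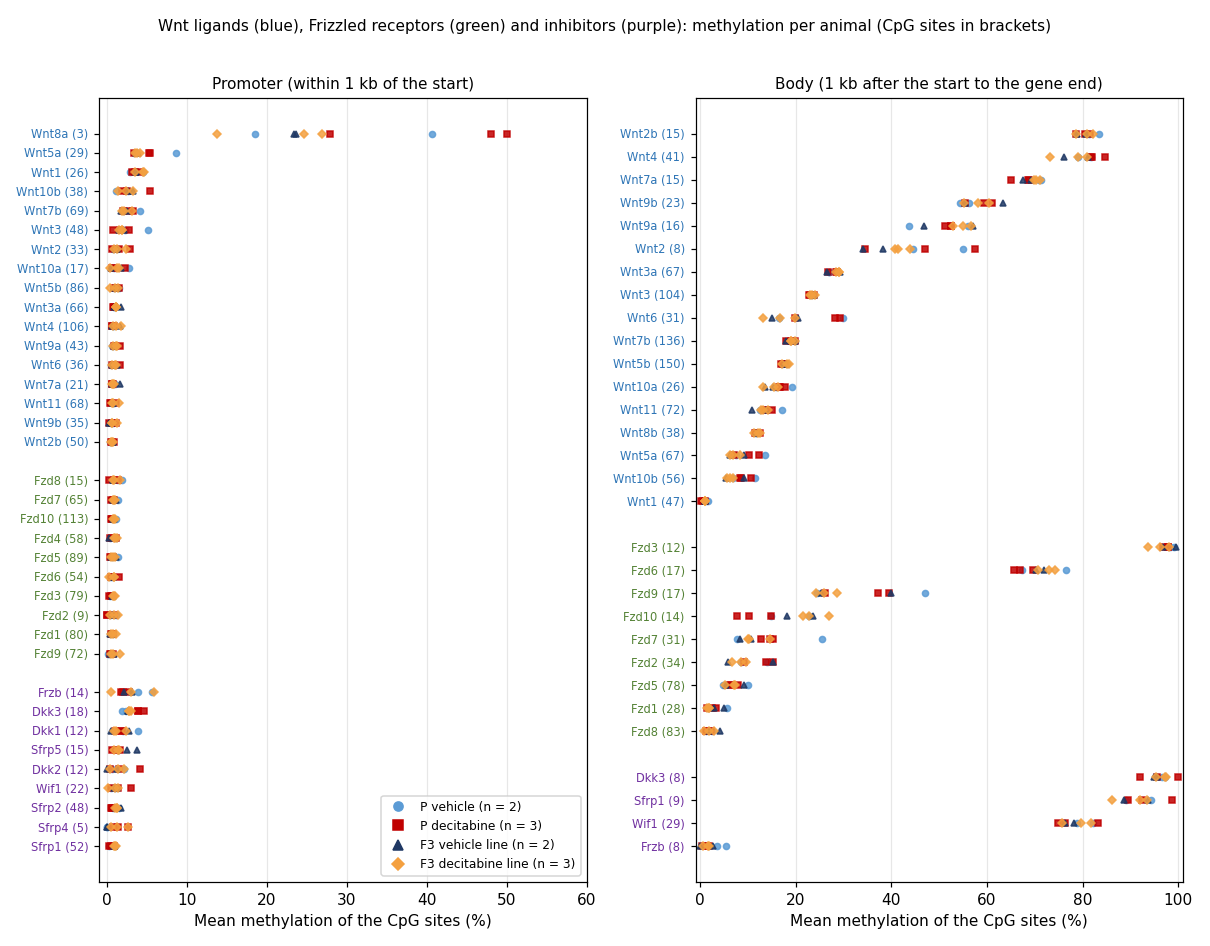
Mean methylation of the promoter (left, 36 genes) and of the body (right, 30 genes), in percent on the horizontal axis, with 1 row per gene, the number of CpG sites in brackets and 1 point per animal coloured by group. The mean over the 10 animals is under 5% in all promoters but that of Wnt8a. Single animals lie above 5% in the promoters of Wnt5a, Wnt3, Wnt10b and Frzb too. The body means over the 10 animals run from 0.941% in Wnt1 to 97.4% in Fzd3.

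Among the ligands, Wnt1, which patterns the midbrain, had the lowest body methylation. Its 47 CpG sites were methylated at 1.60% and 1.102% in C8 and C14, 0.211%, 0.991% and 0.641% in D10, D11 and D13, 0.990% and 1.06% in F3C9 and F3C30, and 0.9496%, 0.907% and 0.9498% in F3D1, F3D7 and F3D31. All animals were at most at 1.60%, and in both generations the groups did not overlap, with vehicle above decitabine animals (decitabine minus vehicle -0.739 and -0.0894 percentage points). Wnt10b, a ligand known from bone formation, was at 11.4% and 6.92% in C8 and C14, 8.54%, 10.6% and 8.38% in D10, D11 and D13, 9.14% and 5.48% in F3C9 and F3C30, and 6.15%, 5.60% and 6.78% in F3D1, F3D7 and F3D31, with C8 highest and the groups overlapping. For Wnt5a, the main ligand of the branches without beta-catenin, the values were 13.5% and 7.54% in C8 and C14, 10.2%, 12.3% and 6.98% in D10, D11 and D13, 9.08% and 6.15% in F3C9 and F3C30, and 8.32%, 6.85% and 6.25% in F3D1, F3D7 and F3D31. C8 was highest here too, and the groups overlapped. At the other end were Wnt2b (80.7% over 15 sites, 78.6% to 83.5%) and Wnt4 (79.97% over 41 sites, 73.1% to 84.7%). Wnt4, known from kidney and female gonad development, was measured at 81.8% and 79.0% in C8 and C14, 81.8%, 84.7% and 81.9% in D10, D11 and D13, 81.1% and 76.2% in F3C9 and F3C30, and 80.9%, 79.1% and 73.1% in F3D1, F3D7 and F3D31. The P-generation groups did not overlap, and those of the F3-generation did. Wnt2b was at 83.5% and 81.3% in C8 and C14, 78.7%, 81.5% and 80.5% in D10, D11 and D13, 78.8% and 80.7% in F3C9 and F3C30, and 78.6%, 80.8% and 82.1% in F3D1, F3D7 and F3D31, with overlapping groups.

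Apart from Fzd3 (70015 bp) and Fzd6 (32155 bp), the Frizzled genes were short, at 2293 to 8780 bp. Of the 314 CpG sites in Frizzled bodies, 287 lay in coding exons. Most Frizzled genes have a single large coding exon. Of these 287, 233 were under 20%, against 141 of 261 coding exon sites in ligands. These shares were not matched by distance from the start. At 1 to 2 kb, 200 of 228 receptor and 205 of 210 ligand sites of any feature were under 20%. Fzd8 was lowest, and its 83 sites were methylated at 2.42% and 1.26% in C8 and C14, 1.18%, 1.69% and 2.32% in D10, D11 and D13, 4.09% and 1.804% in F3C9 and F3C30, and 2.88%, 1.79% and 0.723% in F3D1, F3D7 and F3D31. Fzd1 was at 5.56% and 1.63% in C8 and C14, 1.31%, 2.46% and 3.35% in D10, D11 and D13, 4.87% and 2.91% in F3C9 and F3C30, and 1.34%, 1.73% and 1.799% in F3D1, F3D7 and F3D31. Fzd5, a receptor of the yolk sac and eye, was at 10.02% and 4.68% in C8 and C14, 7.84%, 6.52% and 6.28% in D10, D11 and D13, 9.09% and 5.37% in F3C9 and F3C30, and 7.01%, 5.14% and 7.22% in F3D1, F3D7 and F3D31. All 3 were at most at 10.02% in every animal, and only the F3-generation groups of Fzd1 did not overlap. Fzd3, which guides axons, was the opposite and was methylated at 99.1% and 98.3% in C8 and C14, 97.8%, 96.8% and 97.8% in D10, D11 and D13, 99.5% and 96.8% in F3C9 and F3C30, and 98.1%, 96.2% and 93.6% in F3D1, F3D7 and F3D31. Its 12 body sites began 6389 bp from the start, and the groups overlapped in the F3-generation only. Fzd6, which orients hair follicles, was at 76.4% and 67.4% in C8 and C14, 69.6%, 66.8% and 65.6% in D10, D11 and D13, 70.2% and 71.9% in F3C9 and F3C30, and 74.3%, 70.6% and 72.9% in F3D1, F3D7 and F3D31, and its groups overlapped in both generations. The P-generation difference of Fzd6, -4.54 percentage points, was -0.0367 without C8 and -9.05 without C14.

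Of the inhibitors, only Wif1 had 10 or more CpG sites in the body, and none of them was under 20%. Wif1, which binds Wnt proteins outside the cell, was at 82.2% and 78.9% in C8 and C14, 74.9%, 83.2% and 76.3% in D10, D11 and D13, 76.3% and 78.1% in F3C9 and F3C30, and 81.8%, 79.6% and 75.7% in F3D1, F3D7 and F3D31, and its groups overlapped in both generations. The other inhibitor bodies with at least 3 sites rested on 8 or 9 sites, with Dkk3 at 96.2% and Sfrp1 at 91.8%, and Frzb at 1.88%. The Frzb sites lay within 1196 bp of the start, whereas those of Sfrp1 and Dkk3 began at 3325 bp and 9148 bp.

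The low methylation at the start extended into the first kilobases. Of the sites at 1 to 2 kb downstream of the start, 92.6% were under 20%, against 73.4% at 2 to 5 kb, 42.1% at 5 to 10 kb and 38.7% at 10 to 20 kb. Beyond 20 kb the share was 61.8% (228 of 369), and all 228 low sites were in ligands. They lay in Wnt5b (119), Wnt3 (79), Wnt3a (29) and Wnt7b (1), and 4 of them were within 1 kb of another annotated start of the same gene. These counts are over CpG sites, which lie in shared fragments and are not independent.

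**Figure D2:**
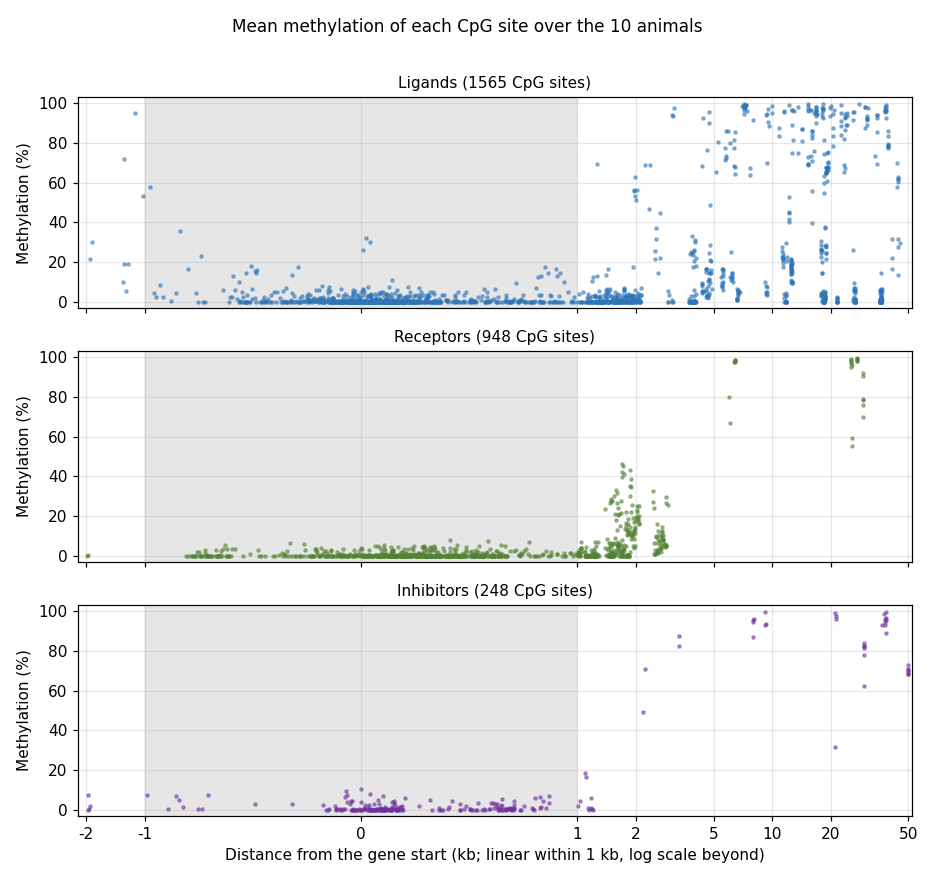
Mean methylation over the 10 animals (vertical axis, percent) of each CpG site by its distance from the gene start (horizontal axis, kb, linear within 1 kb and on a log scale beyond), with 1 panel for ligands, receptors and inhibitors and the promoter zone shaded. Promoter sites lie at the bottom in all classes, and among the drawn sites, low ones beyond 20 kb appear in the ligand panel only. Sites past the end of the axis are not drawn, among them the Wnt5b run from 63642 to 65161 bp.

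Runs of at least 10 neighbouring body sites under 20% located these low stretches. In Wnt5b, 115 intronic sites from 63642 to 65161 bp had a mean of 0.837%, and the protein-coding gene Fbxl14, nested in this intron, starts there. In Wnt3, a ligand needed for the primitive streak and limb, 70 intronic sites from 35678 to 36471 bp had a mean of 1.30%, and the animals ranged from 0.784% to 1.75%. In Wnt3a, which drives the paraxial mesoderm, 28 intronic sites from 26132 to 26673 bp had a mean of 2.26%, with animals from 1.26% to 4.19%. No annotated start was within 1 kb of the Wnt3 and Wnt3a runs, parts of which are printed above, and no CpG site in them was called. Wnt8b had such a run of 34 sites at 1.89%, of which 27 were in a coding exon. Wnt10a had a run of 12 sites from 11440 to 11815 bp at 1.45%, of which 9 were in coding exons. Within Wnt7b, a ligand of lung development, 74 sites from 1003 to 2129 bp at 1.13% covered further starts of the gene and the antisense gene AU022754. The bodies of Wnt3, Wnt3a and Wnt5b joined such low stretches with highly methylated ones, and their means lay between both.

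Decitabine and vehicle were compared first by class. Each class value was the mean of its genes, so that genes with many CpG sites did not dominate. In ligand bodies it was 34.1% and 32.2% in C8 and C14, 33.3%, 34.0% and 32.0% in D10, D11 and D13, 32.1% and 30.8% in F3C9 and F3C30, and 32.0%, 32.3% and 31.7% in F3D1, F3D7 and F3D31. The groups overlapped, with 33.2% ± 1.30 (SD, n = 2) and 33.1% ± 1.04 (SD, n = 3) in the P-generation and a difference of -0.0608 percentage points. In the F3-generation the difference was 0.546, which was 1.20 without F3C9 and turned to -0.108 without F3C30.

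Receptor bodies were at 32.7% and 26.3% in C8 and C14, 28.7%, 28.3% and 25.7% in D10, D11 and D13, 30.2% and 26.8% in F3C9 and F3C30, and 28.0%, 27.9% and 26.8% in F3D1, F3D7 and F3D31. C8 was highest and D13 lowest, and both vehicle groups were split into a high and a low animal. The difference was -1.97 percentage points in the P-generation (29.5% ± 4.55 (SD, n = 2) in the vehicle-control, 27.5% ± 1.63 (SD, n = 3) in decitabine treated animals) and -0.928 in the F3-generation, both smaller than the SD of the vehicle-control. The P-generation difference turned to 1.25 without C8 and was -5.19 without C14, and that of the F3-generation turned to 0.739 without F3C9 and was -2.59 without F3C30. The 4 animals with the highest receptor bodies, C8, F3C9, D10 and D11, were also the 4 with the highest germ cell gene promoters. This match was not uniform. The Pearson correlation with these promoters over the 10 animals was 0.654 in receptor bodies, 0.820 in ligand bodies and -0.0674 in inhibitor bodies. In receptor promoters it was -0.532. These values are for class means. Taken gene by gene, the median correlation was -0.0342 in ligand bodies (9 of 17 below 0), 0.509 in receptor bodies and -0.0225 in inhibitor bodies. Over the bodies of all protein-coding genes this median was -0.271. Inhibitor bodies were at 68.5% and 68.3% in C8 and C14, 66.1%, 66.3% and 69.2% in D10, D11 and D13, 65.6% and 66.8% in F3C9 and F3C30, and 68.2%, 67.3% and 65.3% in F3D1, F3D7 and F3D31, and their differences were -1.23 and 0.715. Over generations, F3 minus P was -1.36, -0.371 and -1.02 percentage points for ligands, receptors and inhibitors, and the generations overlapped in each class. Set beside the P-generation animal it descended from, each F3-generation animal had a lower ligand body mean, with differences of -1.99 to -1.37 percentage points. The germ cell gene promoters were also lower in each of them. F3C9 was at 23.8% against 28.7% in C8, and F3C30 at 13.5% against 15.1% in C14. F3D1 and F3D31 were at 19.7% and 14.7% against 28.2% in D10, and F3D7 at 12.2% against 28.5% in D11. The receptor and inhibitor bodies did not show 1 direction in all 5 animals. Among the 30 bodies, 7 were lower in all 5 (Wnt2, Wnt4, Wnt5a, Wnt6, Wnt10a, Wnt10b and Wnt11), against 5.37% of all bodies, and 2 were higher in all 5 (Fzd10 and Wnt9a), against 15.2%. Over the 10 animals, the 7 lower bodies had Pearson correlations of 0.505 (Wnt10a) to 0.904 (Wnt5a) with the germ cell gene promoters. Those of the 2 higher bodies were -0.753 (Fzd10) and -0.791 (Wnt9a). Of all bodies, 13.7% had a correlation of 0.5 or more. Since the germ cell gene promoters were also lower in all 5 animals, the signs were in part fixed by the choice of these bodies. The part of these promoters in the comparison with ancestors was not tested. That comparison was chosen after the values had been seen and carries no test, since F3D1 and F3D31 share D10 as ancestor.

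**Figure D3:**
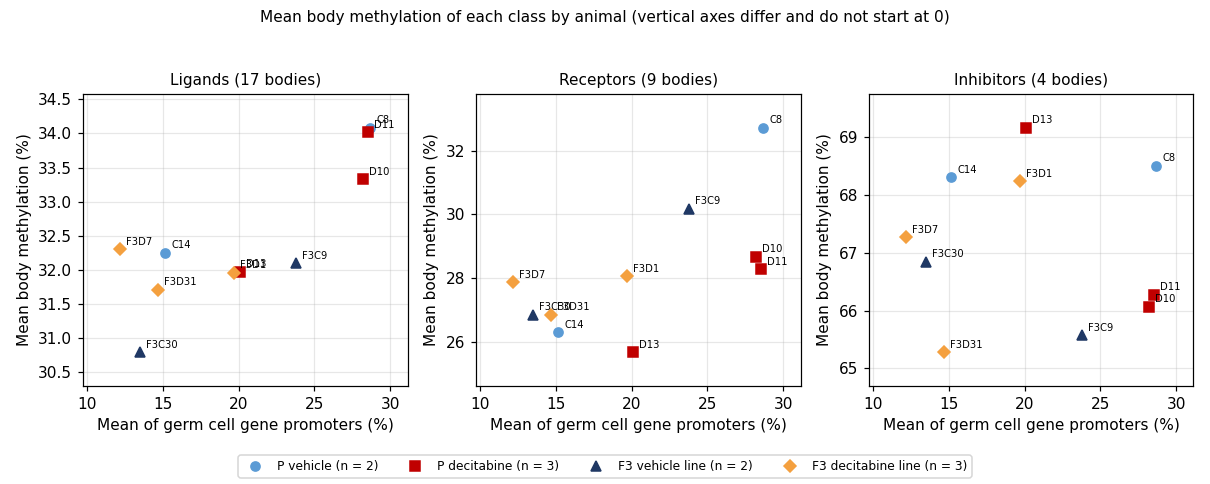
Mean body methylation of each class (vertical axes, percent, which differ between panels and do not start at 0) against the mean of 6 germ cell gene promoters (horizontal axis, percent), with 1 point per animal and a marker for each group. In the receptor panel C8 stands at 32.7% and 28.7%, and the vehicle animals of each generation lie apart.

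In the promoters the class means were small. Ligand promoters were at 4.24% and 2.51% in C8 and C14, 4.48%, 4.54% and 2.999% in D10, D11 and D13, 3.03% and 2.67% in F3C9 and F3C30, and 2.88%, 2.46% and 2.93% in F3D1, F3D7 and F3D31. The differences between decitabine and vehicle were 0.627 and -0.0902 percentage points in the P- and F3-generation, and the groups overlapped. Receptor promoters were at 0.850% and 0.718% in C8 and C14, 0.628%, 0.575% and 0.620% in D10, D11 and D13, 0.670% and 0.738% in F3C9 and F3C30, and 0.740%, 1.05% and 0.809% in F3D1, F3D7 and F3D31. Here the groups did not overlap in either generation, but the direction changed, with -0.176 in the P-generation and 0.162 in the F3-generation. Inhibitor promoters ranged from 1.16% to 2.07%, with differences of 0.0236 and 0.0524. No p-value is given for class means, and a permutation of 3 against 2 animals could not give a p below 0.1.

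By gene, no promoter and no body passed limma at an adjusted p under 0.05 in the P-generation, in the F3-generation, for the difference of these differences or between generations. The smallest adjusted p of a promoter was 0.559 and that of a body 0.471. Over all genes, 0.00% of promoters passed in any of these comparisons, and 0.0168% of bodies passed in the P-generation, 0.00% in the F3-generation and 0.00839% between generations. Among the 36 promoters and 30 bodies, 3 and 3 had an unadjusted p under 0.05 in the P-generation, against 7.76% and 8.92% of all genes, and 2 and 0 in the F3-generation, against 2.94% and 2.62%. For the difference of these differences 0 and 2 did, against 5.70% and 6.52%, and between generations 1 and 3, against 6.42% and 10.3%. With the germ cell gene promoters as a covariate, an alternative chosen after seeing the data, 0 promoters and 0 bodies passed.

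The bodies with non-overlapping groups were 5 of 30 in the P-generation (Wnt1, Wnt4, Wnt7a, Fzd3 and Frzb), against 19.5% of all bodies, and 4 of 30 in the F3-generation (Wnt1, Wnt2, Wnt7a and Fzd1), against 19.1%. Between generations 0 of 30 did not overlap, against 1.85%. For promoters the counts were 10 of 36 in the P-generation (20.5% of all), 6 of 36 in the F3-generation (18.0%) and 1 of 36, Wnt3a, between generations (1.11%).

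Fzd10 had the largest body difference of the P-generation among the 30 bodies with at least 3 sites. Its 14 sites were methylated at 14.8% and 22.8% in C8 and C14, 14.8%, 10.1% and 7.66% in D10, D11 and D13, 18.1% and 23.5% in F3C9 and F3C30, and 21.5%, 26.9% and 22.7% in F3D1, F3D7 and F3D31. D11 and D13 were lowest, C8 and D10 were alike, so the groups overlapped, and all F3-generation animals were above the decitabine treated animals. The P-generation means were 18.8% ± 5.66 (SD, n = 2) and 10.9% ± 3.64 (SD, n = 3), and the log2 ratio differed by -0.89 ± 0.32 (SE) with a limma adjusted p of 0.493. The difference of -7.93 percentage points was -11.9 without C8 and -3.93 without C14. In the F3-generation the decitabine animals were on average 2.89 percentage points above vehicle, 0.186 without F3C9 and 5.59 without F3C30. The difference between generations was 8.54 percentage points (limma adjusted p of 0.471).

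Fzd9, a receptor gene of the Williams syndrome region, had the largest body difference of the F3-generation among these 30 bodies. It was methylated at 47.0% and 24.4% in C8 and C14, 37.2%, 39.5% and 26.0% in D10, D11 and D13, 39.8% and 25.2% in F3C9 and F3C30, and 28.6%, 24.2% and 25.9% in F3D1, F3D7 and F3D31. C8, D10, D11 and F3C9 were high, and the groups overlapped in both generations. The means were 32.5% ± 10.4 (SD, n = 2) in the F3-generation vehicle-control and 26.2% ± 2.20 (SD, n = 3) in the decitabine lineage, and the limma adjusted p was 0.999. The F3-generation difference of -6.25 percentage points turned to 1.08 without F3C9 and was -13.6 without F3C30. The P-generation difference of -1.45 percentage points turned to 9.84 without C8 and was -12.7 without C14. These 4 animals were also the ones with the highest germ cell gene promoters. The body of Fzd7, a receptor of stem cells, was 25.4% and 7.76% in C8 and C14, 14.6%, 15.3% and 12.8% in D10, D11 and D13, 10.6% and 8.37% in F3C9 and F3C30, and 10.2%, 14.5% and 9.92% in F3D1, F3D7 and F3D31, and C8 was far above all other animals. Without C14, when C8 stood alone for the P-generation vehicle-control, its F3 minus P comparison had a limma adjusted p of 0.0366, and 405 of 11916 bodies passed.

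Wnt2, a ligand of lung and placenta, was read at 8 body sites. They were methylated at 55.0% and 44.4% in C8 and C14, 47.0%, 57.5% and 34.5% in D10, D11 and D13, 38.2% and 34.0% in F3C9 and F3C30, and 43.9%, 41.5% and 40.7% in F3D1, F3D7 and F3D31. The F3-generation groups did not overlap, with a difference of 5.96 percentage points, and in the P-generation it was -3.39 with overlapping groups. Neither passed limma (adjusted p of 0.999 and 0.927). The F3-generation difference was 8.05 without F3C9 and 3.87 without F3C30, and that of the P-generation turned to 1.91 without C8 and was -8.69 without C14. Wnt7a, known from limb and oviduct patterning, was at 71.4% and 70.9% in C8 and C14, 68.6%, 65.1% and 68.7% in D10, D11 and D13, 69.1% and 67.5% in F3C9 and F3C30, and 69.8%, 70.2% and 71.0% in F3D1, F3D7 and F3D31. Its groups did not overlap in either generation, but decitabine animals were lower in the P-generation (-3.66 percentage points) and higher in the F3-generation (2.01). Wnt9a, a ligand of joint formation, was at 43.6% and 56.0% in C8 and C14, 51.1%, 52.5% and 52.4% in D10, D11 and D13, 46.8% and 57.1% in F3C9 and F3C30, and 52.8%, 56.6% and 54.9% in F3D1, F3D7 and F3D31, and its groups overlapped in both generations. Its F3-generation difference of 2.82 percentage points turned to -2.30 without F3C9 and was 7.93 without F3C30.

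**Figure D4:**
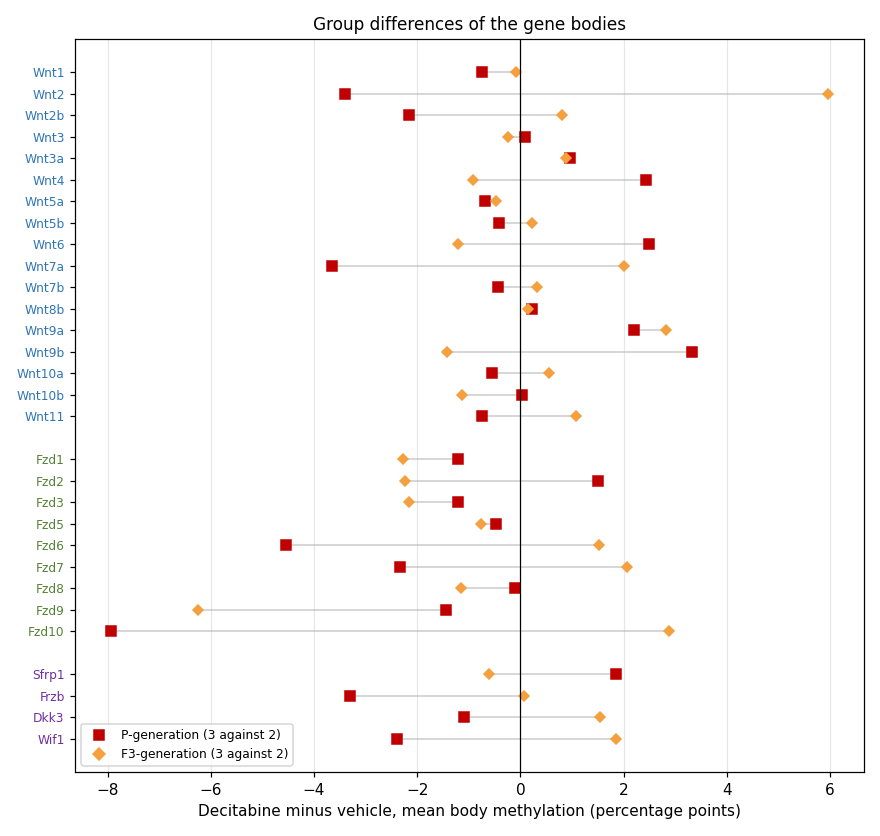
Decitabine minus vehicle of the mean body methylation (horizontal axis, percentage points) for 30 genes, with a square for the P-generation and a diamond for the F3-generation (3 against 2 animals each). The differences run from -7.93 (Fzd10) to 3.32 (Wnt9b) in the P-generation and from -6.25 (Fzd9) to 5.96 (Wnt2) in the F3-generation.

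Of the promoters with the largest differences after Wnt8a, Sfrp4, a secreted Frizzled-related protein, separated the groups in both generations. Its 5 sites were at 0% and 0% in C8 and C14, 0.741%, 1.33% and 2.67% in D10, D11 and D13, 0% and 0% in F3C9 and F3C30, and 0.476%, 1.25% and 2.61% in F3D1, F3D7 and F3D31. All 4 vehicle animals were at 0 methylated reads of 100 to 220, which allows up to 1.36% to 3% per animal, and decitabine animals reached at most 2.67%. The log2 ratio differed by 1.32 ± 0.38 (SE) and 1.22 ± 0.38 (SE) (limma adjusted p of 0.559 and 1), a value that depends on the constant added to a fraction of 0. Dkk3, a member of the Dickkopf family, was at 1.85% and 2.32% in C8 and C14, 3.81%, 3.81% and 4.56% in D10, D11 and D13, 2.61% and 2.64% in F3C9 and F3C30, and 2.71%, 2.80% and 2.99% in F3D1, F3D7 and F3D31, higher in decitabine animals in both generations without overlap. The promoters of Wnt2b and Fzd8 also separated the groups in both generations, but their direction changed. Decitabine minus vehicle was 0.215 and -0.151 percentage points in Wnt2b, and -0.827 and 0.357 in Fzd8. Of all promoters, 20.5% separated the groups in the P-generation and 18.0% in the F3-generation, and the share in both was not counted.

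Frzb, which binds Wnt proteins, was higher in the P-generation vehicle-control, at 5.67% and 3.87% in C8 and C14, 1.78%, 1.93% and 2.80% in D10, D11 and D13, 3.14% and 2.11% in F3C9 and F3C30, and 0.489%, 2.96% and 5.92% in F3D1, F3D7 and F3D31. Its F3-generation groups overlapped. Sfrp5 was at 1.34% and 1.35% in C8 and C14, 1.17%, 1.58% and 0.575% in D10, D11 and D13, 3.70% and 2.46% in F3C9 and F3C30, and 1.41%, 0.856% and 1.46% in F3D1, F3D7 and F3D31, and the F3-generation vehicle-control was above the decitabine lineage without overlap. The other promoters named for their size of difference were Wnt3 (0.694% to 5.15%), Wnt10b (1.15% to 5.38%) and Dkk2 (0% to 4.14%), and none of these promoters passed limma.

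Single CpG sites were called when the pooled levels differed by 25 percentage points or more with q under 0.01 in a logistic model, adjusted over all 904354 sites. In the P-generation 7 of 2907 sites (0.241%) passed, against 0.670% of all sites, with 5 higher (0.316% of all) and 2 lower (0.354% of all) in decitabine treated animals. In the F3-generation 4 sites (0.138%) passed, against 0.216% of all, with 3 higher (0.147% of all) and 1 lower (0.0690% of all). No site passed in both generations. All 11 sites were in bodies, 9 in ligands and 2 in the inhibitor Wif1, and 0 of 950 receptor sites passed in either generation.

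The count depended on single vehicle animals. In the P-generation 3 sites passed without C8, 84 without C14 and 11 without D13, when 0.274%, 4.33% and 0.839% of all sites did. In the F3-generation 0 passed without F3C9 and 27 without F3C30, when 0.0711% and 1.25% of all sites did. Of the 7 sites of the P-generation, 2 still passed without C8, both in Wnt3a, and 3 without D10. Of the 4 sites of the F3-generation, 0 still passed without F3C9 and 2 without F3D7. Intermediate sites carried most calls. Of 221 sites with a mean of 20% to 80%, 6 passed in the P-generation, against 4.46% of all such sites, and 4 in the F3-generation, against 1.60%. Of 2503 sites under 20%, 1 and 0 passed, against 0.0635% and 0.00853%, and of 183 sites at 80% or more 0 and 0, against 0.532% and 0.122%. The groups did not overlap at 192 sites (6.60%) in the P-generation and 222 sites (7.64%) in the F3-generation, against 8.39% and 9.73% of all. The model has no term for the spread between animals of a group. An F test that allows for it passed 0 of 2907 sites in both generations, with 23 and 39 sites (0.791% and 1.34%) at an unadjusted p under 0.05, against 1.12% and 1.24% of all sites. Limma per CpG site also passed 0, with 148 and 111 sites (5.09% and 3.82%), against 5.62% and 3.70%.

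**Figure D5:**
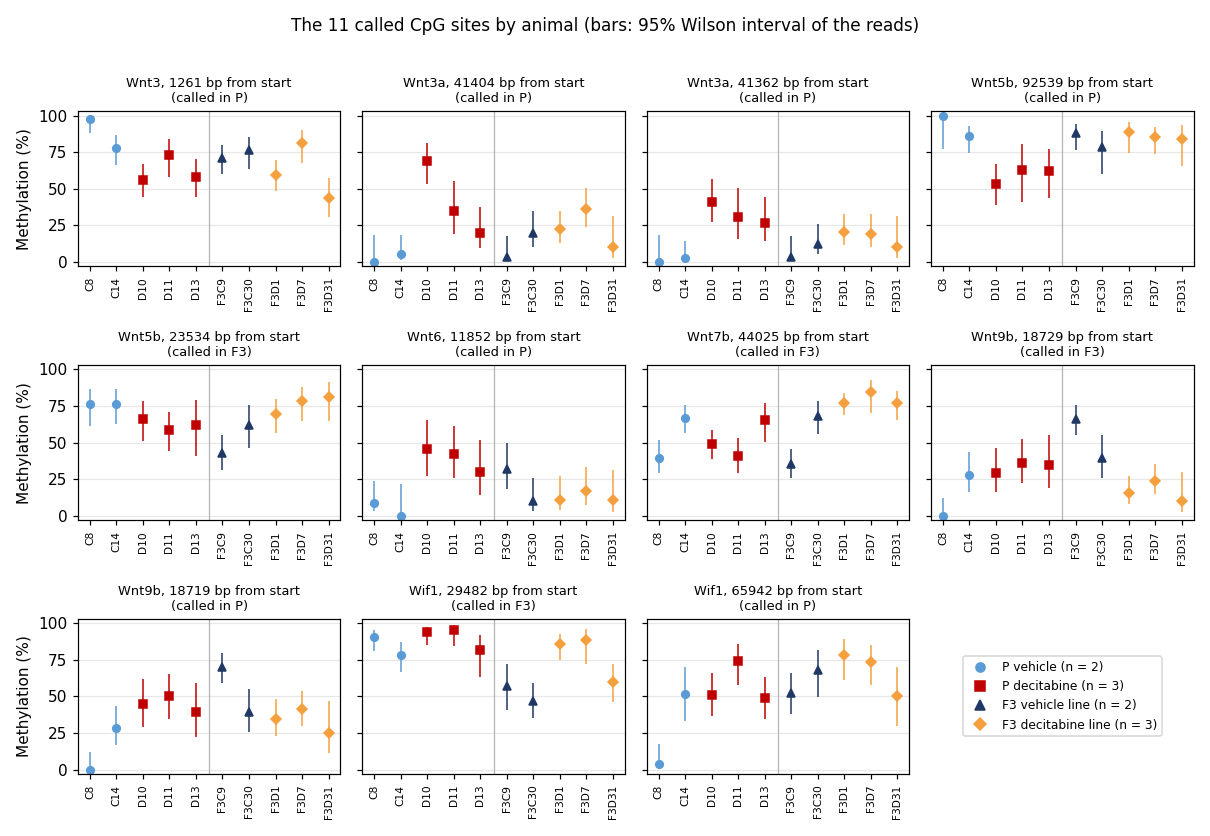
Methylation (vertical axis, percent) of the 11 called CpG sites in each of the 10 animals (horizontal axis), 1 panel per site, with points coloured by group and bars for the 95% Wilson interval of the reads, which covers counting error only. The sites of Wnt3a at 41362 and 41404 bp are lowest in C8, at 0% of 17 reads, and in the panel of Wnt9b at 18729 bp F3C9 and F3C30 lie above F3D1, F3D7 and F3D31.

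Wnt3a, in its 3′ UTR, had the largest difference of the P-generation among the called sites. At 41404 bp it was methylated at 0% and 5.56% in C8 and C14, 69.2%, 34.8% and 20% in D10, D11 and D13, 3.57% and 20% in F3C9 and F3C30, and 22.2%, 36.2% and 10.5% in F3D1, F3D7 and F3D31, over 17 to 54 reads. The pooled difference was 40.8 percentage points (q = 7.99e-06), and C8 and C14 were below all decitabine treated animals. The site 42 bp away, at 41362 bp, gave 0% and 2.78% in C8 and C14, 41.0%, 30.4% and 26.7% in D10, D11 and D13, 3.57% and 12.5% in F3C9 and F3C30, and 20.4%, 19.1% and 10.5% in F3D1, F3D7 and F3D31 and 31.8 points (q = 0.000122). Both sites had the same coverage in every animal, so they were read on the same fragments and do not count as independent. The only other covered site within 200 bp differed the other way, by -11.8 points, and was not called. In C8 both were at 0 of 17 reads, which allows a level of up to 17.6%. In the F3-generation the differences were 12.6 and 9.51. Without D10 the site at 41404 bp was no longer called (22.6 points, q = 0.0199).

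Wnt9b, the inducer of kidney tubules, carried a call in each generation, at sites 10 bp apart in a coding exon. At 18719 bp it was methylated at 0% and 28.2% in C8 and C14, 45.2%, 50% and 39.1% in D10, D11 and D13, 70.3% and 39.5% in F3C9 and F3C30, and 34.6%, 41.3% and 25% in F3D1, F3D7 and F3D31, over 20 to 74 reads. The difference was 29.1 points in the P-generation (q = 0.00462) and -23.5 in the F3-generation (q = 0.0128). At 18729 bp the values were 0% and 28.2% in C8 and C14, 29.0%, 36.1% and 34.8% in D10, D11 and D13, 66.2% and 39.5% in F3C9 and F3C30, and 15.4%, 23.8% and 10% in F3D1, F3D7 and F3D31. The F3-generation difference there was -38.6 points (q = 4.32e-07) and the P-generation difference 16.9. Both sites had the same coverage in each animal and were read together. C8 had 0 of 28 reads at both, which allows up to 10.7%, and stood below all other P-generation animals. The P-generation groups did not overlap at either site, and those of the F3-generation did not overlap at 18729 bp. Without C8 the call at 18719 bp was lost (17.4 points, q = 0.463), and without F3C9 that at 18729 bp (-20.96 points, q = 0.221).

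Wnt6, a ligand of epithelia, was methylated at 11852 bp at 9.09% and 0% in C8 and C14, 45.5%, 42.3% and 30% in D10, D11 and D13, 32.3% and 10% in F3C9 and F3C30, and 10.7%, 16.7% and 10.5% in F3D1, F3D7 and F3D31, over 14 to 33 reads. Decitabine treated animals were higher by 33.3 points (q = 0.00168), and the F3-generation difference was -8.32. C14 had 0 of 14 reads, which allows up to 21.4%. C8 and C14 were below all decitabine treated animals, and in the F3-generation F3C9 was highest and F3C30 lowest. Without C8 the q-value was 0.0333 and the difference 39.7 points. The 2 covered neighbours within 200 bp differed in the same direction by 15.3 and 29.5 points without being called. Over the whole body Wnt6 was at 29.9% and 16.5% in C8 and C14, 28.1%, 29.2% and 19.7% in D10, D11 and D13, 20.5% and 15.01% in F3C9 and F3C30, and 13.1%, 16.7% and 19.9% in F3D1, F3D7 and F3D31, with C14 below C8.

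Wnt3 at 1261 bp, just past the promoter, was at 97.8% and 78.1% in C8 and C14, 55.9%, 73.2% and 58.0% in D10, D11 and D13, 70.9% and 76.4% in F3C9 and F3C30, and 59.5%, 81.4% and 43.8% in F3D1, F3D7 and F3D31, over 41 to 84 reads. Decitabine treated animals were lower by a pooled difference of -25.2 points (q = 0.000547) without overlap, and C8 was highest. Without C8 it was -17.1 (q = 0.215). The F3-generation difference was -12.6 (q = 0.187) with overlap. No covered neighbour lay within 200 bp, and the Wnt3 body as a whole was at 22.8% to 23.9% over the 10 animals.

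Wnt5b, a close relative of Wnt5a, had a call in each generation, at different intronic sites. At 92539 bp it was methylated at 100% and 86.0% in C8 and C14, 53.3%, 63.2% and 62.1% in D10, D11 and D13, 88.0% and 78.6% in F3C9 and F3C30, and 88.9%, 85.5% and 84.0% in F3D1, F3D7 and F3D31, with a P-generation difference of -30.5 points (q = 0.00108) and an F3-generation difference of 1.59. At 23534 bp it was at 76.2% and 76.6% in C8 and C14, 65.9%, 58.3% and 61.9% in D10, D11 and D13, 42.6% and 62.2% in F3C9 and F3C30, and 69.5%, 78.7% and 81.2% in F3D1, F3D7 and F3D31, with an F3-generation difference of 25.4 points (q = 0.00579) and a P-generation difference of -14.5. The groups did not overlap at 92539 bp in the P-generation and at 23534 bp in both generations, there in opposite directions. Without C8 the first was -27.9 points (q = 0.0227), and without F3C9 the other was 13.2 points (q = 0.62). The body mean of Wnt5b was 16.8% to 18.6%.

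Wnt7b was methylated at 44025 bp at 39.7% and 66.7% in C8 and C14, 48.9%, 41.0% and 65.2% in D10, D11 and D13, 35.3% and 68.2% in F3C9 and F3C30, and 77.2%, 84.6% and 76.8% in F3D1, F3D7 and F3D31, over 39 to 127 reads. The F3-generation difference was 28.6 points (q = 8.48e-06), and that of the P-generation -5.03. F3C9 was lowest and the F3-generation groups did not overlap, whereas those of the P-generation did. Without F3C9 the difference was 10.1 points (q = 0.573). All 5 neighbours within 200 bp were also higher in the decitabine lineage, by 9.19 to 22.2 points, and none was called. The Wnt7b body was at 18.0% to 19.9%.

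Wif1 had a call in each generation. At 65942 bp it was methylated at 3.57% and 52% in C8 and C14, 51.2%, 74.3% and 48.8% in D10, D11 and D13, 52.3% and 67.9% in F3C9 and F3C30, and 78.1%, 73.7% and 50% in F3D1, F3D7 and F3D31, with a P-generation difference of 30.8 points (q = 0.00691) and an F3-generation difference of 11.7. C8 was lowest by far, C14 was above D10 and D13, and the groups overlapped. Without C8 the difference was 5.26 points (q = 1). Of its 8 neighbours within 200 bp, 3 differed in the same direction. At 29482 bp it was at 90.3% and 78.3% in C8 and C14, 93.9%, 95.3% and 81.5% in D10, D11 and D13, 57.1% and 46.9% in F3C9 and F3C30, and 86.0%, 88.9% and 59.6% in F3D1, F3D7 and F3D31, with 26.0 points in the F3-generation (q = 0.00422) and 7.06 in the P-generation. Without F3C30 the F3-generation difference was 19.3 points (q = 0.179), and without F3C9 29.6 points (q = 0.0147). F3D31 was close to F3C9 there, and the F3-generation groups did not overlap.

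The difference itself differed between generations (interaction q under 0.05) at 116 of the 2907 sites, against 5.01% of all sites. Of the 7 sites called in the P-generation, 4 had the same sign in the F3-generation, and of the 4 called in the F3-generation, 1 had the same sign in the P-generation. No other annotated gene overlapped a called site or started within 1 kb of it. Of 44 listed co-receptor, signalling and transcription factor genes of the pathway, 0 of 37 promoters and 0 of 40 bodies passed limma in any comparison. Their 4059 CpG sites held 25 calls (0.616%) for the P-generation, 6 of them higher, and 8 (0.197%) for the F3-generation, 7 of them higher.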

How the data were processed

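RRBS libraries of spermatozoal DNA from 10 mice were analysed. Per the labels, CASAVA 1.8.2, Trim Galore 0.3.3, cutadapt 1.1 and Bismark 0.10.1 were used and reads mapped to mm10. The authors deposited, per animal and CpG cytosine, the counts of methylated and unmethylated reads, not normalized, filtered or pooled. The deposited counts of both strands were summed, and sites with 10 or more reads in all 10 animals were kept. A region was tested with at least 3 sites, and its value was the mean methylation of its sites. Annotation was GENCODE for GRCm38, and promoter sequences were from RefSeq.

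CpG sites were tested with a logistic model and likelihood ratio (NumPy 2.4.6, SciPy 1.17.1), in which pooled reads are treated as independent, and Benjamini-Hochberg q-values over all sites. Regions were tested with limma 3.58.1 in R 4.3.3 on log2 of the methylated over the unmethylated fraction, with 0.01 added to both, over all genes and with 4 groups sharing 1 spread. Whether animals share litters was not given, so the limma p-values measure the spread between these animals. The q-values of the logistic model and of its interaction come from pooled reads and do not measure that spread. Wilson 95% intervals and the limits of 0 reads (3 counts) cover counting error only. The code was tested on simulated data. Permutation tests of class means were planned and are left out, since 3 against 2 animals cannot give a p below 0.1. The genes and lists were chosen with earlier results of these data known. Named are the genes with a called site, a promoter at 10% or more, the 3 highest and 3 lowest bodies of a class with 10 or more sites, and the 5 largest differences per zone and generation. Fzd7, the low stretches and the other genes given by value were named after their values were seen. Alternatives changed the read minimum, strands, thinning, test, thresholds, zones, constant, site minimum and the animals.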

Additional observations from a re-analysis of the deposited data

Results flagged for a closer look

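At 6 of the 11 called CpG sites the difference between decitabine and vehicle itself differed between the P- and the F3-generation, by an interaction term in the logistic model of the pooled reads with a q-value under 0.05 over all sites. This held for 116 of 2907 sites in these genes (3.99%), against 5.01% of all sites. Since the 6 sites were chosen by a call in 1 generation, the difference was in part fixed by that choice.

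Wnt9b at 18729 bp had the smallest interaction q, 9.41e-06, with 16.9 percentage points in the P-generation and -38.6 in the F3-generation. Its neighbour at 18719 bp, read on the same fragments, had 29.1 and -23.5 points (q = 4.32e-05). Wnt7b at 44025 bp had -5.03 and 28.6 points (q = 0.000286). At the Wnt5b site at 23534 bp the differences were -14.5 and 25.4 points (q = 0.00169), and at that at 92539 bp they were -30.5 and 1.59 (q = 0.0384). Wnt6 at 11852 bp had 33.3 and -8.32 points (q = 0.00482). The interaction has no term for the spread between animals, and limma passed 0 of the 36 promoters and 0 of the 30 bodies of these genes for the difference of the differences.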

How the results depend on the processing

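No paired analysis was possible because the labels give the decitabine and vehicle groups no shared animal numbers. The descent of the F3-generation, given by the study, was used as a random block for F3 minus P only, where 0 promoters and 0 bodies passed limma. The count of called CpG sites was the least stable value. In the P-generation (7) it was 3 with 20 reads (0.491% of all sites), 0 with the F test, 0 with limma, 31 at 10 percentage points and 13 at a q-value under 0.05 (2.12% and 0.854% of all sites), and 3 to 84 with 1 animal left out (0.274% to 4.33%). In the F3-generation (4) it was 2 after thinning (0.0289%), 0 with the F test, 0 with limma and 27 at 10 points (1.00%), and 0 to 27 with 1 animal left out (0.0711% to 1.25%). The F3 minus P count of bodies in limma was 0 to 1 with 1 animal left out.

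Class means that moved by more than 1 SD were, for F3 minus P in ligand promoters, -0.112 over all CpG sites, -0.0343 by reads and -0.0846 with 20 reads. Inhibitor promoters in the P-generation gave -1.11 with 20 reads, 0.897 with narrower promoters and -0.341 with every transcript start, and -0.487 for F3 minus P with 20 reads. By reads, ligand bodies gave 1.496 and -0.673 in the P- and F3-generation and inhibitor bodies 2.41 in the F3-generation. With 1 animal left out, P-generation differences were -0.238 to 1.49 in ligand promoters, -0.980 to 0.859 in ligand bodies and -5.19 to 1.25 in receptor bodies, and F3-generation inhibitor promoters -0.322 to 0.427. The cause was not tested. Other class mean alternatives stayed within 1 SD, and no called CpG site changed its direction. With 10 reads 1 read is worth 10 percentage points, so small differences at single sites were not detectable.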

Other observations

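The body sites differed in level with the part of the gene they lay in. All 75 sites in 5′ UTRs, most of them in ligands, were under 20%. In introns 419 of 603 sites were under 20%, but this came from the ligands (414 of 560), against 3 of 11 in receptors and 2 of 32 in inhibitors. In 3′ UTRs 8 of 34 sites were under 20% and 14 were over 80%. Only 15 sites lay between 1 and 2 kb upstream of a start, of which 10 were under 20%.

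The reach of the low stretch from the start varied between genes. It ended before a first site at 20% or more in Wnt10a at 1941 bp (56.0%), in Fzd1 at 2080 bp (20.3%) and in Fzd7 at 1855 bp (30.2%). In Fzd8 every covered site up to 2742 bp was under 20%. Wnt9b had no covered site between 178 bp and 15949 bp, so the end of its low stretch could not be placed.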
